A study of Mus musculus with 6 samples.

Results

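The 52 genes described here encode the Wnt ligands, the Frizzled receptors, their co-receptors and secreted antagonists, and the components that carry the signal to TCF/LEF transcription factors. They were chosen by name: every mouse gene called Wnt, Fzd, Sfrp or Dkk followed by its number, plus Lrp5, Lrp6, Lgr4, Lgr5, Axin1, Axin2, Apc, Ctnnb1, Lef1, Tcf7, Tcf7l1, Tcf7l2, Rnf43, Znrf3 and Nkd1. All 52 were found among the 29267 genes of the deposited tables. RNA sequencing covered 6 libraries of OG2 strain mouse neural stem cells, grown in culture to passage 8. OG2 mice carry a GFP reporter driven by Oct4 regulatory sequence. D2 libraries came from cells put through differentiation and NSC libraries from undifferentiated cells, each with naloxone (an opioid receptor antagonist), with DAMGO (a peptide that activates mu opioid receptors) or without either as control. The labels state no dose, exposure time or differentiation medium. Each of the 6 groups held 1 library, and nothing says that libraries came from separate cultures, so a p-value reflects no more than the spread among these 6 libraries, which may be technical. By its title the series concerns what naloxone does to the growth and differentiation of these cells.

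Wnt proteins are lipid-modified secreted ligands. In the canonical branch they bind a Frizzled receptor together with Lrp5 or Lrp6, which halts the destruction complex of Axin, Apc and the kinases Gsk3 and Ck1, so that beta-catenin accumulates and joins TCF/LEF factors on DNA. Rnf43 and Znrf3 remove Frizzled from the cell surface, and R-spondins bound to Lgr4 or Lgr5 block that removal. In the developing forebrain the pathway is known for maintaining progenitors and timing neuron and glia production, and Wnt7a and Wnt7b are known as signals of progenitors and oligodendrocyte precursors to blood vessels.

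Rounded library totals ranged from 8417041 to 13561208 counts, with 17124 to 17850 genes detected per library. Genes averaging 10 counts or more per library entered the edgeR test, D2 against NSC, over the 3 ligand conditions. Levels are in TPM, a share of all transcripts corrected for transcript length, and the 3 values of a state stand in the order naloxone, DAMGO and control. The labelled cell type was checked against its markers. All 10 neural stem and progenitor markers passed the filter, with a summed level of 12363 to 13241 TPM in D2 and 11384 to 11724 TPM in NSC, and 8 rose and 2 fell in D2. Summed astrocyte markers stood at 3000 to 3170 TPM in D2 against 453 to 471 TPM in NSC, and 8 of 8 rose. Summed oligodendrocyte lineage markers stood at 889.9 to 949.9 TPM in D2 against 99.3 to 113 TPM in NSC, where 6 of 7 tested rose and 1 fell. Summed neuron markers stood at 636 to 706 TPM in D2 against 543 to 550.2 TPM in NSC, where 3 of 5 tested rose and 1 fell. Summed levels of the choroid plexus, endothelial, microglial, fibroblast and pericyte, and pluripotent lists were at most 10.98 TPM in any library, with Zfp42, Dppa5a and Cx3cr1 at 0 in all.

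Of the 52 members, 35 passed the filter and 17 did not. Among the 35, 14 rose and 13 fell in D2, and 8 did not pass the test (edgeR, adjusted p under 0.05). Over all 13216 genes tested 79.8% were called, 40.0% higher and 39.8% lower, so the 77.1% of members called were close to the background. Members that changed at least 2-fold were 9 higher and 8 lower, which is 25.7% and 22.9% of the 35, against 15.9% and 18.0% of all genes. The median log2 fold change was -0.02 for the members and 0.00 for all genes. The TPM values of the 2 states did not overlap for 27 of the 35 members and for 79.0% of all genes tested. Lack of overlap, given below for single genes, was thus common over all genes. These are bulk libraries, in which fewer cells of a type and less RNA per cell cannot be told apart. The rise of the astrocyte and oligodendrocyte lineage markers given above ran alongside every D2 difference, and its part in the results was not tested.

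**Figure D1:**
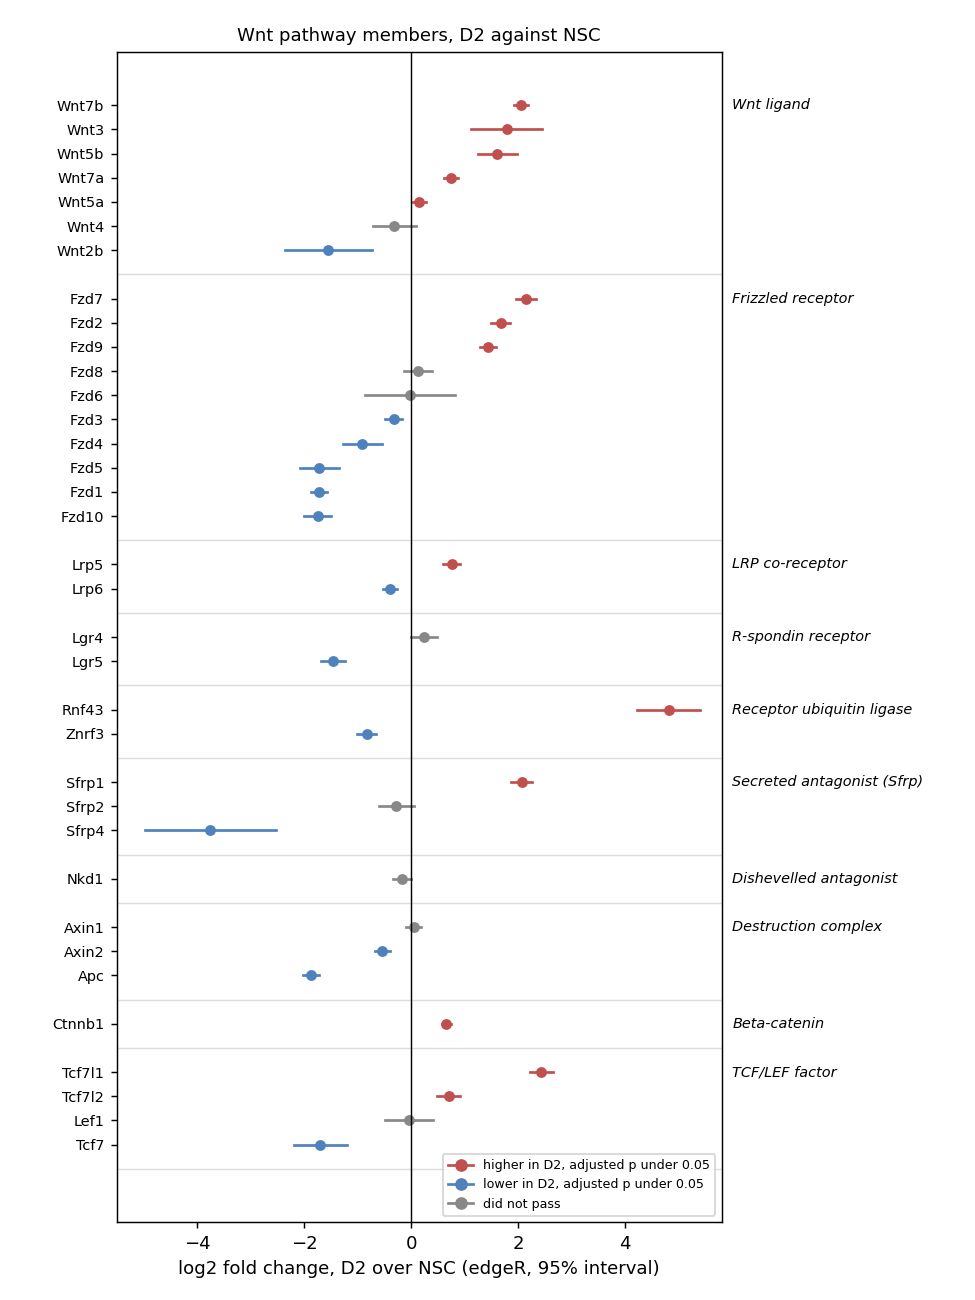
Log2 fold change of D2 over NSC for the 35 tested members, 1 row per gene grouped by role, with its 95% interval from the edgeR fit over 6 libraries. Rnf43 lies farthest to the right at 4.82 and Sfrp4 farthest to the left at -3.76, and the Frizzled, LRP, ubiquitin ligase, Sfrp and TCF/LEF families each hold members on both sides of 0.

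The ligands rose in sum, and the rise was carried by Wnt7a and Wnt7b. The 19 Wnt genes together reached 268, 263 and 262 TPM in D2, against 145, 137 and 135 TPM in NSC, 1.91 times as high. Of the 19, 7 passed the filter, and 5 of them rose and 1 fell. Wnt7b (chromosome 15, 85535437 to 85582473, mm10) had 100.2, 103 and 103 TPM in D2, against 24.99, 25.6 and 22.5 TPM in NSC. All D2 libraries lay above all NSC libraries, a 4.14-fold rise (edgeR log2 fold change 2.05, SE 0.06, adjusted p = 3.43e-11). Its close paralogue Wnt7a was already the most abundant ligand of NSC, with 90.8, 96.8 and 99.1 TPM in D2, against 57.8, 54.5 and 58.05 TPM in NSC. It rose less, without overlap between the states (edgeR log2 fold change 0.74, SE 0.06, adjusted p = 1.72e-07). Wnt7b accounted for 37.4%, 39.0% and 39.2% of the summed Wnt level in D2, against 17.3%, 18.7% and 16.7% in NSC. Wnt7a held 33.9%, 36.8% and 37.8% in D2 and 40.0%, 39.7% and 43.2% in NSC. An overlapping gene on the other strand, AU022754, shares 324 exonic bases with Wnt7b, and its counts were 3.15% of those of Wnt7b.

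Wnt5a, the main ligand of the branch that does not use beta-catenin, was nearly level. It had 56.1, 43.5 and 41.98 TPM in D2, against 50.1, 46.7 and 42.8 TPM in NSC, and these values overlap. On counts the difference passed the test at a small size (edgeR log2 fold change 0.15, SE 0.05, adjusted p = 0.0209), but without either control library it did not pass (edgeR, adjusted p = 0.145 and 0.129 without the D2 and the NSC control). Its share of the Wnt total was 20.9%, 16.5% and 16.0% in D2, against 34.6%, 34.0% and 31.8% in NSC. The deposited mean transcript length of Wnt5a, by which TPM is scaled, varied from 4512 to 5534 bases in D2 and from 4436 to 4759 bases in NSC.

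The less abundant ligands moved in both directions. Wnt5b, a paralogue of Wnt5a, had 11.3, 10.8 and 9.84 TPM in D2, against 3.57, 4.04 and 2.98 TPM in NSC. The states were fully separate (edgeR log2 fold change 1.61, SE 0.16, adjusted p = 1.43e-06). Wnt3, a canonical ligand, had 34, 47 and 46 counts in D2, against 18, 18 and 8 counts in NSC. It rose at a low level, with no overlap (edgeR log2 fold change 1.79, SE 0.30, adjusted p = 1.26e-04). Wnt2b, a ligand known from the cortical hem at the edge of the developing cortex, had 9, 8 and 8 counts in D2, against 32, 19 and 39 counts in NSC. It fell, again with no overlap (edgeR log2 fold change -1.55, SE 0.37, adjusted p = 0.00157). Wnt4 had 3.88, 3.64 and 2.86 TPM in D2, against 4.75, 3.24 and 4.82 TPM in NSC, with overlap. It did not pass (edgeR log2 fold change -0.32 (SE 0.18), adjusted p = 0.130, 95% interval -0.72 to 0.08), and it did pass as lower without either DAMGO library (edgeR, adjusted p = 0.0246 without the D2 and 0.0227 without the NSC library).

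The other 12 ligand genes were under the filter. Exact intervals given for genes under the filter pool the 3 libraries of a state and cover counting error only, not the spread between libraries. Wnt1, Wnt3a, Wnt8b, Wnt10a and Wnt10b had 0 counts in all 6 libraries, so each may still have had up to 3 counts in the 6 libraries combined, or 0.0493 CPM, counting error alone considered. Wnt2, Wnt8a, Wnt9b, Wnt11 and Wnt16 had at most 6 counts over the 6 libraries. Wnt9a, just under the filter, had 14, 16 and 13 counts in D2, against 8, 4 and 4 in NSC, a 3.24-fold ratio of depth-corrected counts (exact 95% interval 1.79 to 6.17). Wnt6 had 7, 1 and 7 counts in D2, against 1, 0 and 0 in NSC, an 18.1-fold ratio of depth-corrected counts (exact 95% interval 2.78 to 762). In GENCODE release M21 on mm10, 8 of the 19 ligand genes lie in 4 pairs with gaps of 6.19 to 24.3 kb: Wnt6 with Wnt10a on chromosome 1, Wnt3a with Wnt9a and Wnt9b with Wnt3 on chromosome 11, and Wnt10b with Wnt1 on chromosome 15. Of these 8 genes 1, Wnt3, passed the filter, and its neighbour Wnt9b had 2 counts over the 6 libraries.

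**Figure D2:**
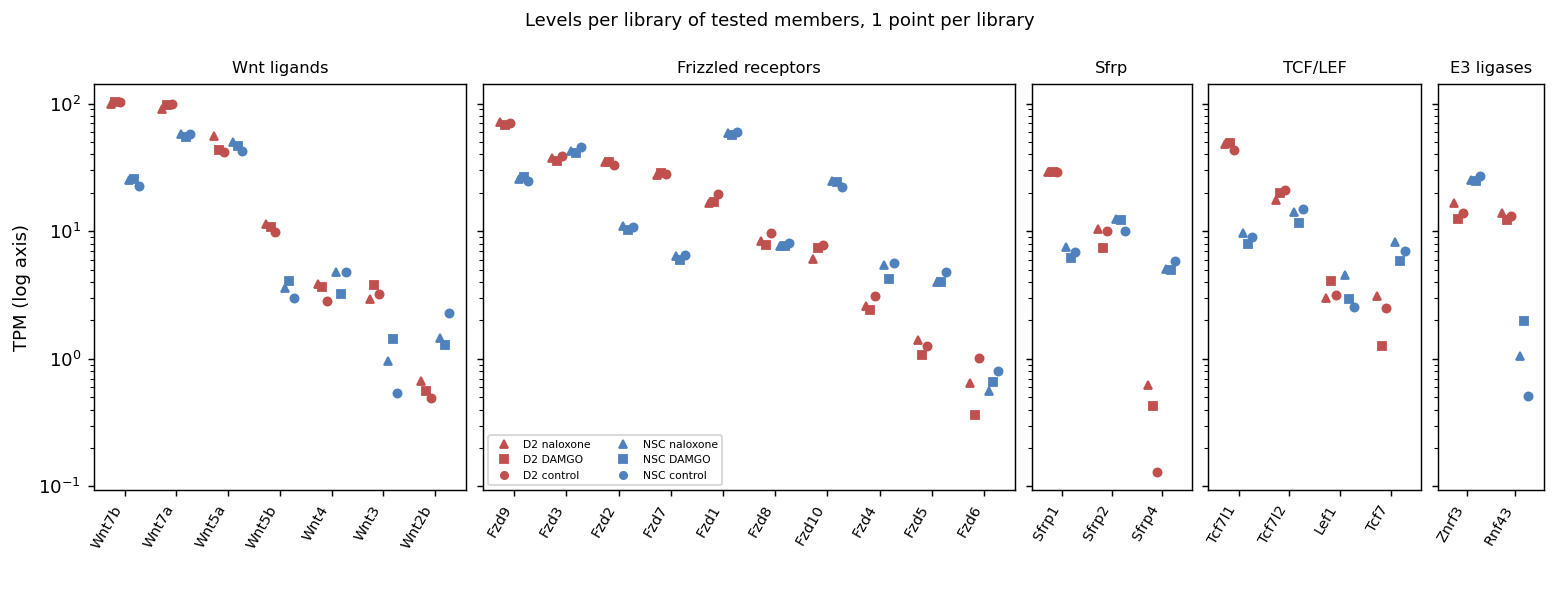
TPM of tested members on a log axis, 1 point per library, with D2 libraries left of NSC libraries for each gene and the marker shape giving the ligand. Within a state the 3 libraries lie close together for abundant genes such as Wnt7b (100.2 to 103 TPM in D2) and spread for genes with few counts such as Sfrp4 and Fzd6.

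The Frizzled receptors changed in make-up while their sum moved little. The 10 genes summed to 208, 202 and 213 TPM in D2, against 187, 181 and 189 TPM in NSC, 1.12 times as high. All 10 passed the filter, and 3 rose, 5 fell and 2 did not pass. Fzd9 (chromosome 5, 135248938 to 135251230), a receptor expressed in neural precursors, had 71.7, 67.5 and 70.8 TPM in D2, against 25.7, 26.5 and 24.9 TPM in NSC. It was the most abundant Frizzled of D2, well above its NSC levels (edgeR log2 fold change 1.44, SE 0.07, adjusted p = 2.03e-09). Fzd7 (chromosome 1, 59482424 to 59486955), a canonical receptor known from stem cells of other tissues, had 27.6, 28.6 and 28.2 TPM in D2, against 6.42, 5.99 and 6.49 TPM in NSC. The states did not overlap, and the rise was 4.42-fold (edgeR log2 fold change 2.14, SE 0.09, adjusted p = 2.41e-10). Fzd2, close in sequence to Fzd7 and Fzd1, had 35.2, 34.7 and 33.05 TPM in D2, against 11.00, 10.3 and 10.7 TPM in NSC, a rise without overlap (edgeR log2 fold change 1.67, SE 0.08, adjusted p = 1.25e-09).

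Fzd1, the third of that group, went the other way. Fzd1 (chromosome 5, 4753839 to 4758035) had 16.6, 17.1 and 19.5 TPM in D2, against 59.01, 56.7 and 59.7 TPM in NSC. In NSC it was the most abundant Frizzled, and its fall was 3.31-fold (edgeR log2 fold change -1.73, SE 0.07, adjusted p = 2.49e-10). Fzd10, a receptor of the subfamily of Fzd4 and Fzd9, had 6.08, 7.35 and 7.75 TPM in D2, against 24.6, 24.1 and 22.3 TPM in NSC. It fell without overlap (edgeR log2 fold change -1.75, SE 0.12, adjusted p = 2.50e-08). Fzd5, known from eye and forebrain progenitors, had 1.41, 1.07 and 1.26 TPM in D2, against 3.97, 3.97 and 4.80 TPM in NSC, and fell (edgeR log2 fold change -1.72, SE 0.17, adjusted p = 7.75e-07). Smaller falls were those of Fzd4, the Norrin receptor, at -0.92 (SE 0.17) and of Fzd3, a receptor of axon guidance and planar polarity, at -0.32 (SE 0.07) on the log2 scale (edgeR, adjusted p = 2.52e-04 and 0.00144). Without the NSC control library the Fzd3 value was -0.21. Fzd8 (-0.13 to 0.39) and Fzd6 (-0.86 to 0.83, from 10, 6 and 19 counts in D2, against 14, 11 and 16 in NSC) are given by the 95% interval of their log2 fold change and did not pass (edgeR, adjusted p = 0.330 and 0.968).

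As shares of the summed Frizzled level, Fzd9 held 34.5%, 33.4% and 33.3% in D2, against 13.7%, 14.7% and 13.2% in NSC. Fzd1 held 8.02%, 8.45% and 9.14% in D2, against 31.5%, 31.3% and 31.5% in NSC. Fzd3, the second most abundant receptor in both states, held 18.0%, 17.4% and 18.1% in D2 and 22.8%, 22.5% and 24.2% in NSC. The order of the levels was thus Fzd9, Fzd3, Fzd2 and Fzd7 in D2 and Fzd1, Fzd3, Fzd9 and Fzd10 in NSC. In D2 the ranges of Fzd3 (35.3 to 38.6 TPM) and Fzd2 (33.1 to 35.2 TPM) nearly touch. In NSC the ranges of Fzd9 (24.9 to 26.5 TPM) and Fzd10 (22.3 to 24.7 TPM) do so as well.

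**Figure D3:**
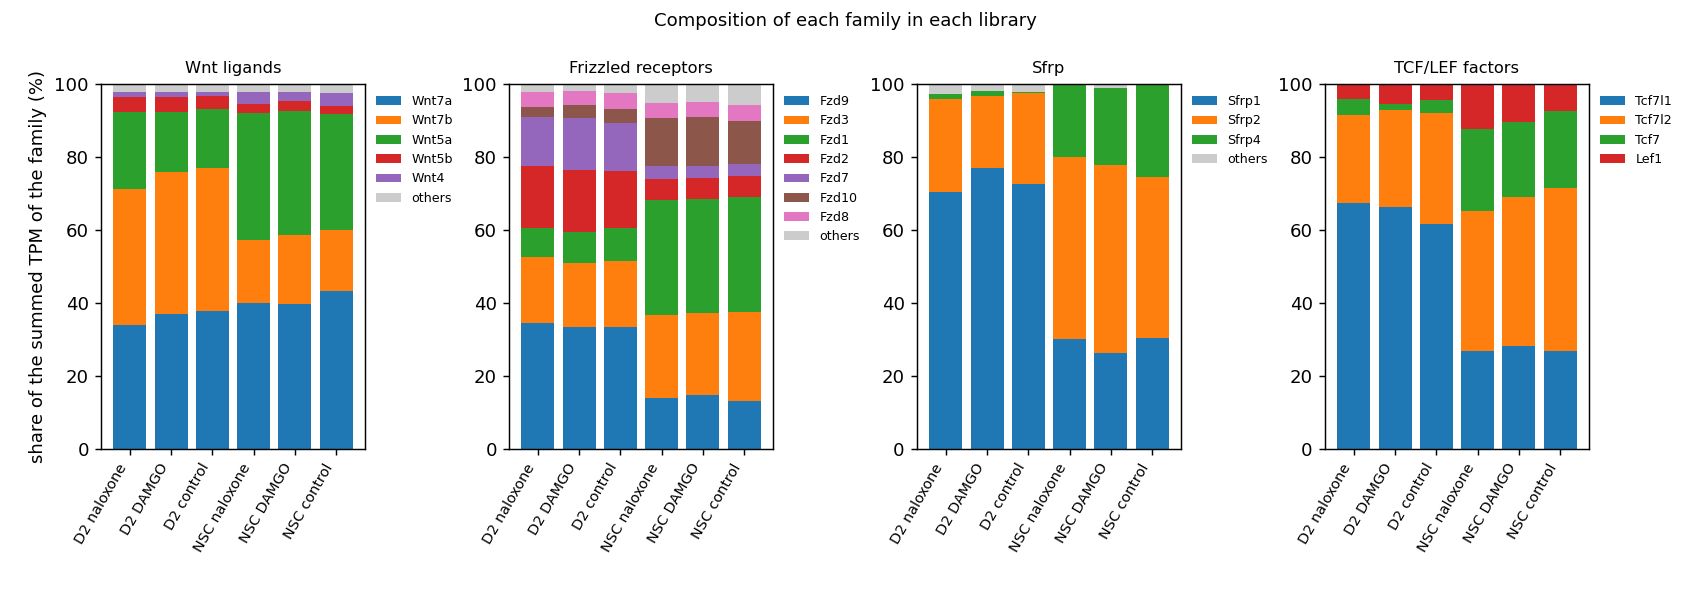
Share of the summed TPM of the Wnt, Frizzled, Sfrp and TCF/LEF families held by each gene, in percent, 1 bar per library, D2 left of NSC. Genes under 3% in every library are pooled as others; the bars of a state resemble each other, while Wnt7b, Fzd9, Sfrp1 and Tcf7l1 take larger shares in D2 than in NSC.

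The co-receptors shifted against each other. Lrp5 had 23.6, 22.9 and 23.4 TPM in D2, against 14.9, 12.9 and 13.2 TPM in NSC, and Lrp6 had 29.6, 23.8 and 21.99 TPM in D2, against 33.1, 32.6 and 31.9 TPM in NSC. Lrp5 rose and Lrp6 fell, both by less than 2-fold and without overlap (edgeR log2 fold change 0.76 (SE 0.07), adjusted p = 1.27e-06, and -0.40 (SE 0.06), adjusted p = 4.60e-05). Among the R-spondin receptors Lgr5 (chromosome 10, 115450311 to 115587780), a marker of Wnt-responsive stem cells in the gut and itself a known Wnt target, had 6.80, 5.04 and 6.99 TPM in D2, against 20.2, 19.6 and 17.1 TPM in NSC. It fell with no overlap (edgeR log2 fold change -1.46, SE 0.10, adjusted p = 5.13e-08). Lgr4 had 8.53, 7.79 and 8.12 TPM in D2, against 8.07, 7.03 and 6.63 TPM in NSC, with overlap. It did not pass (edgeR log2 fold change 0.25 (SE 0.11), adjusted p = 0.0576), and without either DAMGO library it passed as higher (edgeR, adjusted p = 0.0394 without the D2 and 0.0374 without the NSC library). The R-spondin genes Rspo1, Rspo2, Rspo3 and Rspo4 had 8, 1, 3 and 4 counts over the 6 libraries.

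Rnf43 showed the largest change of the 35 tested members. Rnf43 (chromosome 11, 87662722 to 87735539), one of 2 membrane ubiquitin ligases that clear Frizzled, had 179, 164 and 227 counts in D2, against 8, 7 and 9 counts in NSC. The gap between the states was wide in every ligand condition, a 28.2-fold rise (edgeR log2 fold change 4.82, SE 0.27, adjusted p = 2.95e-10). On the TPM scale it had 13.9, 12.2 and 13.1 TPM in D2, against 1.06, 1.98 and 0.51 TPM in NSC. The deposited mean transcript length of Rnf43 was 3439, 3343 and 3762 bases in D2, against 1279, 916 and 3641 bases in NSC, where it rests on 7 to 9 counts, so the NSC TPM values are uncertain. Znrf3, the other ligase, had 16.8, 12.4 and 13.9 TPM in D2, against 25.1, 24.9 and 26.9 TPM in NSC. It fell by less than 2-fold, with no overlap (edgeR log2 fold change -0.83, SE 0.08, adjusted p = 1.59e-06). Both ligases are known targets of beta-catenin and TCF, and here one rose and the other fell.

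Secreted antagonists also changed in make-up. Sfrp1 (chromosome 8, 23411502 to 23449632), which binds Wnt proteins outside the cell, had 29.00, 28.9 and 29.1 TPM in D2, against 7.51, 6.16 and 6.92 TPM in NSC. It rose 4.18-fold with no overlap (edgeR log2 fold change 2.06, SE 0.09, adjusted p = 5.54e-10). Sfrp4, of the same family, had 4, 3 and 1 counts in D2, against 53, 35 and 48 counts in NSC. It fell to a few counts (edgeR log2 fold change -3.76, SE 0.56, adjusted p = 4.89e-06). Sfrp2 was the most abundant Sfrp in NSC, with 10.4, 7.44 and 10.01 TPM in D2, against 12.5, 12.2 and 10.04 TPM in NSC, and the states overlap. It did not pass (edgeR log2 fold change -0.28 (SE 0.15), adjusted p = 0.103), and without either control library it passed as lower (edgeR, adjusted p = 0.0360 without the D2 and 0.0383 without the NSC control). Sfrp5 had 8, 6 and 8 counts in D2, against 0, 2 and 0 in NSC, under the filter, a 13.3-fold ratio of depth-corrected counts (exact 95% interval 3.26 to 116).

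The Dickkopf genes were hardly detected. Dkk1 and Dkk4, which bind Lrp5 and Lrp6 and block canonical signalling, had 0 counts in all 6 libraries, and Dkk2 had 1 count. Dkk3, a divergent member, had 18, 12 and 17 counts in D2, against 3, 1 and 1 counts in NSC. Its level was under the filter, at 0.89 to 1.43 TPM in D2 and 0.06 to 0.15 TPM in NSC, an 11.3-fold ratio of depth-corrected counts (exact 95% interval 4.53 to 36.5). When all genes with a count were tested, Dkk3, Sfrp5, Wnt6 and Wnt9a passed as higher in D2 (edgeR, adjusted p = 1.62e-06, 0.00245, 0.0130 and 0.00392). P-values of that fit cannot be set beside those of the fit reported. The adjusted p of Apc, for example, was 1.37e-241 there and 1.56e-10 in the fit reported (edgeR). Over all genes it called 45 for naloxone and 83 for DAMGO, against 2 and 2. The passes of these low-count genes are therefore weak evidence of a rise.

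Inside the cell, Apc transcripts fell and beta-catenin transcripts rose. Apc (chromosome 18, 34220924 to 34322552), the scaffold that holds beta-catenin for degradation, had 64.1, 48.6 and 45.9 TPM in D2, against 179.6, 173 and 182 TPM in NSC. It fell 3.66-fold with no overlap (edgeR log2 fold change -1.87, SE 0.07, adjusted p = 1.56e-10). Axin1, the other scaffold, had 57.4, 60.3 and 58.8 TPM in D2, against 67.3, 49.9 and 53.8 TPM in NSC. The states overlap and Axin1 did not pass (edgeR log2 fold change 0.05 (SE 0.06), 95% interval -0.09 to 0.19, adjusted p = 0.511). Ctnnb1, which encodes beta-catenin, also a component of cell junctions, was the most abundant member by far, with 1201, 1128 and 1178 TPM in D2, against 739, 763 and 754 TPM in NSC. It rose 1.57-fold without overlap (edgeR log2 fold change 0.65, SE 0.04, adjusted p = 1.20e-08).

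Among the members, the feedback genes that are widely used to read canonical activity fell or did not pass, apart from Rnf43, which rose. Outside the members, Apcdd1, also a known target, rose as well (edgeR log2 fold change 3.26, SE 0.17), as given below. Axin2 (chromosome 11, 108920349 to 108950783), an induced inhibitor, had 36.5, 35.3 and 33.7 TPM in D2, against 46.2, 48.1 and 54.98 TPM in NSC. It fell by less than 2-fold, and the states did not overlap (edgeR log2 fold change -0.54, SE 0.06, adjusted p = 7.27e-06). Nkd1, an induced antagonist of Dishevelled, had 20.2, 21.6 and 21.9 TPM in D2, against 24.99, 23.1 and 23.2 TPM in NSC. The D2 values lie just below the NSC values, and Nkd1 did not pass (edgeR log2 fold change -0.17 (SE 0.08), adjusted p = 0.0569). It passed as lower without the ligand term (edgeR, adjusted p = 0.0255) and barely without the filter (edgeR, adjusted p = 0.0469). As said above, p-values of the fit without the filter cannot be set beside those of the fit reported. The log2 fold change of Nkd1 was -0.092 without the D2 naloxone library and -0.085 without the NSC naloxone library. Of the 7 members known as feedback targets in other tissues (Axin2, Nkd1, Lgr5, Rnf43, Znrf3, Lef1 and Tcf7), 1 rose, 4 fell and 2 did not pass. Over all genes tested 40.0% were called higher and 39.8% lower. The grouping of these 7 was made with the values known.

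The TCF/LEF factors, which bind DNA and recruit beta-catenin, shifted towards Tcf7l1. Tcf7l1 (chromosome 6, 72626378 to 72789254), known mainly as a repressor in the absence of Wnt signal, had 48.6, 49.4 and 43.00 TPM in D2, against 9.76, 7.95 and 8.94 TPM in NSC. The rise was 5.41-fold with no overlap (edgeR log2 fold change 2.43, SE 0.10, adjusted p = 1.85e-10). Tcf7l2, the main effector in many tissues and a regulator of oligodendrocyte maturation, had 17.4, 19.9 and 21.1 TPM in D2, against 14.04, 11.6 and 14.9 TPM in NSC. It rose by less than 2-fold (edgeR log2 fold change 0.70, SE 0.10, adjusted p = 3.08e-05). Tcf7 had 3.09, 1.25 and 2.48 TPM in D2, against 8.17, 5.82 and 7.03 TPM in NSC. It fell 3.25-fold, and the states did not overlap (edgeR log2 fold change -1.70, SE 0.23, adjusted p = 1.35e-05). Lef1, known mostly as an activator, had 3.02, 4.07 and 3.17 TPM in D2, against 4.55, 2.94 and 2.54 TPM in NSC, with full overlap. It did not pass (edgeR log2 fold change -0.04 (SE 0.20), 95% interval -0.48 to 0.41, adjusted p = 0.868). Tcf7l1 made up 67.4%, 66.2% and 61.6% of the summed TCF/LEF level in D2, against 26.7%, 28.1% and 26.8% in NSC. Tcf7 made up 4.28%, 1.67% and 3.55% in D2, against 22.4%, 20.6% and 21.1% in NSC.

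Promoters of the members were read for the letters that TCF/LEF factors prefer, CTTTG followed by AA, AT, TA or TT, on both strands. RefSeq promoters (GRCm38.p6, from 250 bases before to 50 after the start) were available for 34 of the 52 members, with 44 starts. A match was present at 7 of the 44 starts (15.9%), against 16.9% of all 32851 promoters in the table. The 250 bases before the start are shown 5′ to 3′ on the gene's strand for Fzd7, the Frizzled that rose most, and for Axin2, the feedback gene most used to read the pathway, which fell. Both stretches lie outside the gene bounds of GENCODE M21 given above. Capitals mark a match.
Fzd7, chr1:59481897-59482146, strand +: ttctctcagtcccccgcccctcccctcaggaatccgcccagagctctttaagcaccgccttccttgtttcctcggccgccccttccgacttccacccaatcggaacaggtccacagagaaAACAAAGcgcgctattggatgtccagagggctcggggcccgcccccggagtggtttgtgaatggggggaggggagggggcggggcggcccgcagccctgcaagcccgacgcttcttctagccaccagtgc
Axin2, chr11:108920099-108920348, strand +: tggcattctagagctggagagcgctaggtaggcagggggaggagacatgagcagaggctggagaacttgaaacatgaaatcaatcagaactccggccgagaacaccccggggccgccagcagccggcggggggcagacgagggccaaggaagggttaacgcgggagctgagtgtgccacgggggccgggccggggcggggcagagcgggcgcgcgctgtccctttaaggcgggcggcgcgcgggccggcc
Fzd7 held 1 match, AACAAAG, which reads CTTTG and TT on the other strand, beginning 130 bases before the start. The windows of Axin2, Tcf7l1 and Rnf43 (at both listed starts) held none of these letters, which says only that they are not in this stretch.

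Genes around the members were read from 7 lists. They covered secretion factors, other antagonists, R-spondins, and planar polarity genes with receptors outside the canonical branch. The others were Dishevelled and destruction complex partners, nuclear co-factors and common target transcripts. The lists name 78 genes, of which 77 were matched and 61 tested. Of the 61, 30 rose, 22 fell and 9 did not pass in D2 (edgeR, adjusted p under 0.05), 85.2% called against 79.8% of all genes. Those 79.8% were 40.0% higher and 39.8% lower, the background for the counts per list below. Of 2 tested secretion genes, 1 rose: Porcn, the enzyme that attaches the lipid to Wnt proteins, had 52.9, 44.7 and 54.1 TPM in D2, against 18.2, 16.7 and 13.3 TPM in NSC (edgeR log2 fold change 1.71, SE 0.11, adjusted p = 2.79e-08). Wls, the carrier of finished ligands, had 103, 82.4 and 84.9 TPM in D2, against 79.9, 86.6 and 78.8 TPM in NSC, and did not pass (edgeR log2 fold change 0.13, SE 0.07, adjusted p = 0.114).

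Of the 4 tested genes among other antagonists and modulators 3 rose and 1 fell. Draxin, a secreted axon guidance protein that also antagonises Wnt through Lrp6, had 144, 138 and 132 TPM in D2, against 8.17, 7.72 and 7.09 TPM in NSC (edgeR log2 fold change 4.16, SE 0.07, adjusted p = 2.37e-13). That level was above the sum of all Sfrp genes in D2. Apcdd1, a membrane inhibitor of Wnt that is also a known target, had 23.2, 23.4 and 22.6 TPM in D2, against 2.99, 2.03 and 2.02 TPM in NSC (edgeR log2 fold change 3.26, SE 0.17, adjusted p = 9.99e-10). Frzb, the Sfrp family member outside the naming rule, rose at 0.78 (SE 0.31) and Kremen1, a Dickkopf co-receptor, fell at -0.39 (SE 0.06) on the log2 scale. The Frzb value rests on 117 counts over the 6 libraries (edgeR, adjusted p = 0.0334).

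The list of planar polarity genes and of receptors outside the canonical branch held the largest rises around the members. Of 14 tested, 8 rose, 4 fell and 2 did not pass (median log2 fold change 0.18). Celsr1, an atypical cadherin of the polarity core, had 43.5, 40.4 and 41.4 TPM in D2, against 1.32, 1.41 and 1.28 TPM in NSC (edgeR log2 fold change 4.96, SE 0.09, adjusted p = 2.37e-13). Daam2, a formin that binds Dishevelled and is known from oligodendrocyte development, had 24.2, 23.1 and 22.6 TPM in D2, against 1.36, 1.12 and 0.72 TPM in NSC (edgeR log2 fold change 4.42, SE 0.17, adjusted p = 2.51e-11). Celsr3 at 2.31 (SE 0.09) and Prickle2 at 1.83 (SE 0.10) on the log2 scale rose too, and Ror2, a receptor of Wnt5a, fell at -1.35 (SE 0.14).

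Of 19 Dishevelled and destruction complex partners 8 rose, 8 fell and 3 did not pass (median log2 fold change 0.00). Apc2, the neural paralogue of Apc, had 72.1, 66.4 and 74.2 TPM in D2, against 12.6, 8.87 and 10.9 TPM in NSC, and rose (edgeR log2 fold change 2.76, SE 0.06, adjusted p = 2.67e-12). The kinase gene Gsk3b rose at 0.34 (SE 0.05), and Gsk3a did not pass at 0.00 (SE 0.06), both on the log2 scale. Of 14 nuclear co-factors 8 rose, 3 fell and 3 did not pass. Tle2, a Groucho co-repressor, had 3.07, 7.73 and 7.58 TPM in D2, against 73.05, 78.2 and 88.5 TPM in NSC and fell (edgeR log2 fold change -4.09, SE 0.13, adjusted p = 7.28e-12), while its paralogue Tle1 had 95.9, 91.6 and 83.96 TPM in D2, against 30.6, 34.8 and 29.9 TPM in NSC and rose (edgeR log2 fold change 1.63, SE 0.06, adjusted p = 1.91e-10). Ctnnbip1, an inhibitor of the binding of beta-catenin to TCF, rose at 1.42 (SE 0.06) on the log2 scale. Pygo1, Bcl9l and Bcl9, of the same list and not repressors, rose too, at 1.25 (SE 0.09), 0.83 (SE 0.06) and 0.78 (SE 0.07).

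Among 10 tested transcripts that beta-catenin and TCF often raise, 3 rose and 7 fell (median log2 fold change -0.92). Over all genes tested 79.8% were called, 40.0% higher and 39.8% lower, and the list was chosen with earlier results known. All 10 transcripts answer to other signals as well. Those that fell most were the G1 cyclin Ccnd1 at -4.18 (SE 0.04), the mesoderm factor T at -3.36 (SE 0.55), the adhesion receptor Cd44 at -1.12 (SE 0.10) and the growth regulator Myc at -1.11 (SE 0.06) on the log2 scale. T rests on 111 counts over the 6 libraries, at 0.11 to 0.68 TPM in D2 and 2.81 to 4.62 TPM in NSC. Those that rose were Apcdd1, Tnfrsf19, a receptor of the TNF family, at 1.35 (SE 0.05) and Id2, an inhibitor of bHLH factors, at 1.08 (SE 0.07).

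**Figure D4:**
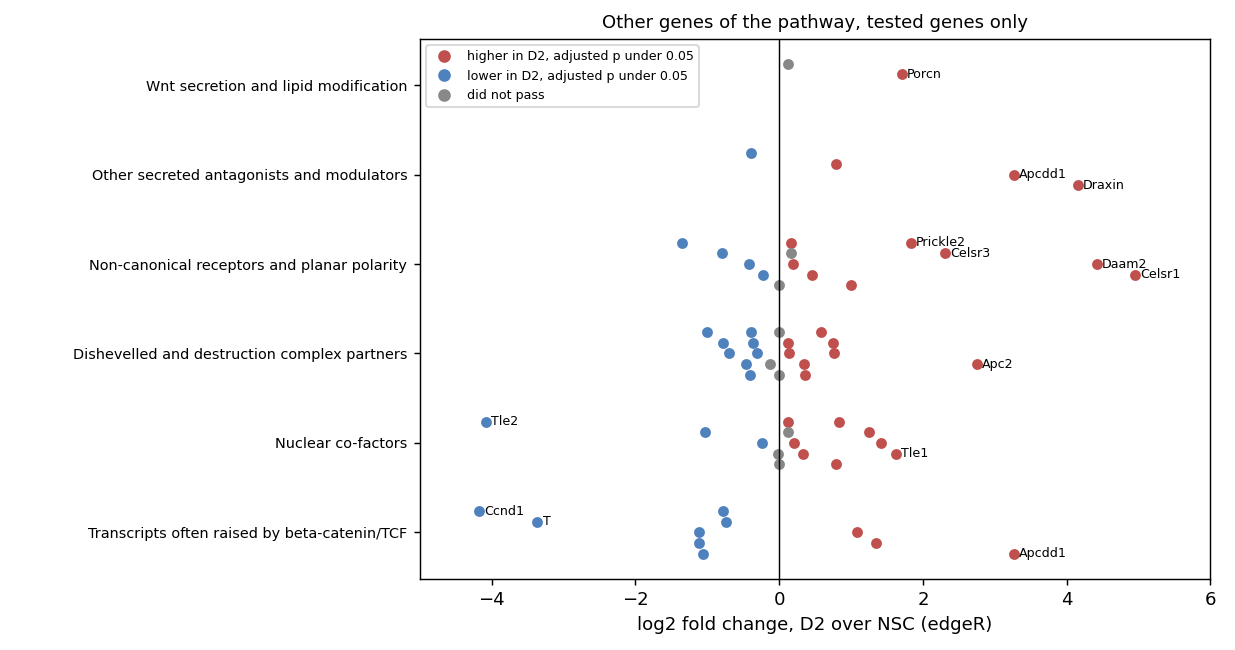
Log2 fold change of D2 over NSC (edgeR) for the tested genes of the 6 pathway lists that have any, 1 point per gene and 1 row per list, with vertical offsets only to separate points. Names mark changes of at least 1.5 in size, with Celsr1 at 4.96 and Ccnd1 at -4.18 as the extremes.

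Neither ligand gave a call among the members. For naloxone against control over both states 0 of 35 passed (edgeR, lowest adjusted p 1.00; background 0.0151% of all genes), and for DAMGO against control 0 of 35 passed (edgeR; background 0.0151%). DESeq2 and limma also called 0 of 35 in each contrast, and edgeR called 0 of the 61 other pathway genes. At an unadjusted p under 0.05 edgeR had 2 members for naloxone and 0 for DAMGO, against 2.22% and 2.40% of all genes, and DESeq2 and limma each had 1 and 0. Both contrasts use the same control libraries. For the 23 members with a mean of at least 100 counts, log2 fold changes lay between -0.15 and 0.20 with naloxone and between -0.18 and 0.08 with DAMGO. The median half-width of their 95% intervals was 0.19 for naloxone (range 0.10 to 0.31) and 0.20 for DAMGO (range 0.10 to 0.32). An effect that differs between the states goes into the residual of this fit and could not be tested.

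**Figure D5:**
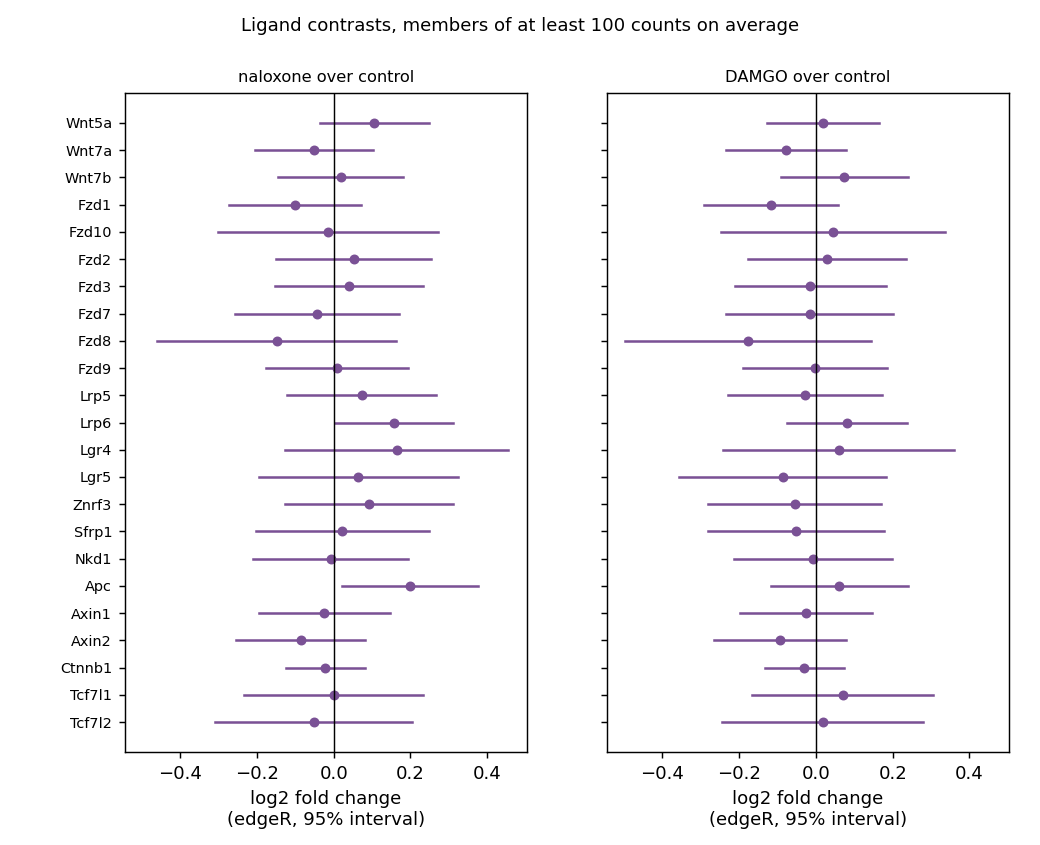
Log2 fold change of naloxone over control (left) and DAMGO over control (right) across both states, with 95% intervals (edgeR), for the 23 members of at least 100 counts on average. The naloxone intervals of Apc and Lrp6 lie above 0 before adjustment over genes, and all other intervals cover 0.

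The 2 members at an unadjusted p under 0.05 were Apc and Lrp6, both with naloxone. Apc had an edgeR log2 fold change of 0.20 (SE 0.08, unadjusted p = 0.0320). Within the D2 state it had 2087 counts with naloxone and 1882 in the control, a depth-corrected log2 ratio of 0.42 (exact 95% counting interval of the ratio 1.25 to 1.42). In NSC it had 10746 counts with naloxone and 8354 in the control, a log2 ratio of 0.01 (interval 0.979 to 1.04). Lrp6 had an edgeR log2 fold change of 0.16 (SE 0.07, unadjusted p = 0.0460), with log2 ratios of 0.26 in D2 and 0.07 in NSC.

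Within a state each comparison sets 1 library against 1, with no replicate check. A log2 ratio of at least 1 in size, with at least 20 counts over both libraries, was reached by 0 of 35 members for naloxone in D2, 1 of 35 for DAMGO in D2, 0 of 34 for naloxone in NSC and 1 of 34 for DAMGO in NSC. The background over all genes was 1.56%, 1.80%, 0.870% and 0.915%. In D2, Fzd6 had 6 counts with DAMGO and 19 in the control, a log2 ratio of -1.23 (exact 95% counting interval of the ratio 0.119 to 0.949). In NSC, Wnt3 had 18 counts with DAMGO and 8 in the control, a log2 ratio of 1.19 (interval 1.09 to 6.98). Both rest on few counts and were not past that size in the other state, where Fzd6 had a log2 ratio of -0.28 in NSC and Wnt3 one of 0.23 in D2.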

How the data were processed

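Per the labels' protocols, Trizol was used for RNA extraction and the TruSeq RNA kit of Illumina, which keeps no strand, for the libraries. Bowtie and RSEM were used with the mm10 build, per the submitters' processing notes; their versions, the annotation and any read filter were not stated in the sources used. The authors deposited an expected count (an estimated count that divides reads mapping to several places), a TPM value, an FPKM value and a mean transcript length for each gene and library. FPKM served only as an alternative to TPM for shares.

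Symbols and coordinates came from GENCODE release M21 on the same build, which matched 28756 of 29267 identifiers. Expected counts were rounded and 13216 genes averaging 10 counts or more were kept. State plus ligand were fitted without interaction after TMM scaling, leaving 2 residual degrees of freedom. The spread of each gene was moderated with that of all tested genes, at a median of 9.45 prior degrees of freedom. Tests and 95% intervals used the total, so they rest largely on spread shared over genes. The test was the quasi-likelihood F test of edgeR 4.0.16 (R 4.3.3). P-values were adjusted by Benjamini-Hochberg over all tested genes, with a threshold of 0.05. Standard errors came from the information matrix of the fit and its posterior dispersion, and 95% intervals used the t distribution. Within-state log2 ratios used a prior count of 2 and exact binomial intervals, which cover counting error only. Alternatives were DESeq2 1.42.0, limma 3.58.1 on log2(TPM + 1), other scalings, no filter, a test against a 2-fold change, no ligand term, and libraries left out. The scripts were tested on simulated data.

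Members and lists were chosen with earlier results of these data known. The rule for values per library took tested members past the state test at 2-fold or more, any member past a ligand test or the within-state fold, Axin2, Lef1, Tcf7, Tcf7l1, Tcf7l2, Ctnnb1, Lgr5, Nkd1, Rnf43 and Znrf3, and the most abundant member of each family, plus up to 4 of the largest called changes per pathway list. Other genes with values (such as Wnt4, Wnt5a, Wnt6, Wnt9a, Lrp5, Lrp6, Lgr4, Axin1, Sfrp5, Dkk3, Wls, Ror2, Gsk3a, Gsk3b and Id2) were chosen after their values were seen. Of the 45 members with counts, 35 had whole expected counts (within 0.005) in every library. Exons of 8 tested members overlap a gene on the other strand, which had at most 3.15% of the member's counts.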

Additional observations from a re-analysis of the deposited data

Results flagged for a closer look

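On counts, the DAMGO ratios of Apc and Fzd3 pointed in opposite directions in the 2 states, with counting intervals that leave out 1 in each. With DAMGO such intervals left out 1 for 5 of 35 members in D2 and 4 of 34 in NSC. The share over all genes was not computed, so no background stands beside these 2 genes. Apc had 1884 counts with DAMGO and 1882 in the control in D2, a depth-corrected log2 ratio of 0.21 (interval of the ratio 1.08 to 1.23), and 6870 with DAMGO and 8354 in the control in NSC, a log2 ratio of -0.06 (interval 0.930 to 0.991). The ratio in D2 minus that in NSC was 0.27. Fzd3 had 592 counts with DAMGO and 608 in the control in D2, a log2 ratio of 0.17 (interval 1.001 to 1.26, barely above 1). In NSC it had 697 with DAMGO and 918 in the control, a log2 ratio of -0.17 (interval 0.802 to 0.979). The ratio in D2 minus that in NSC was 0.34.

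On the TPM scale Fzd3 was lower with DAMGO in both states, at 35.3 TPM with DAMGO and 38.6 TPM in the control in D2, and 40.7 TPM with DAMGO and 45.8 TPM in the control in NSC. The deposited mean transcript length of Fzd3 was 3421 bases in the D2 control and 4157 bases in the other 5 libraries. Against the same D2 control, naloxone gave log2 ratios of the same sign as DAMGO, 0.21 for Fzd3 (interval 1.03 to 1.30) and 0.42 for Apc (interval 1.25 to 1.42), so on counts the D2 control library was below both D2 ligand libraries for these genes. With 1 library per group neither difference was tested, and the intervals cover counting error only.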

How the results depend on the processing

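Counts of members called in D2 stayed between 13 and 17 higher and 13 and 14 lower under DESeq2, RLE scaling, no scaling factors (added after seeing the data), no filter, limma on log2(TPM + 1), no ligand term, and each library or pair of libraries left out. In the test against a 2-fold change 9 were higher and 7 lower. Naloxone and DAMGO called 0 members in every setting run. No within-state ratio passed the size set (0) on log2(TPM + 1), against 2 members on counts, since the added 1 shrinks ratios of low genes. Fzd6 and Lef1, which did not pass, changed sign. Fzd6, at -0.02 in the fit reported, was at 0.026 without the ligand term and between -0.25 (without the D2 control) and 0.25 (without either DAMGO library, or both, at 0.25) with libraries left out. Lef1, at -0.04, was at 0.045 with limma and between -0.19 (without the D2 DAMGO library) and 0.15 (without the NSC naloxone library) with libraries left out, at 0.14 without the naloxone pair. Wnt5a also lost its call with DESeq2 (adjusted p = 0.129), without the filter (edgeR, adjusted p = 0.0707) and with limma (adjusted p = 0.899). Apart from the test against a 2-fold change, 28 of the 35 members kept their direction and their side of the threshold in all settings. The ligand term of the fit already pairs the D2 and NSC library of each condition, and the labels carry no replicate numbers to pair by. Removing 1 library leaves the other library of its ligand without weight in the state contrast, so these runs nearly repeat those without the pair. Few counts limit Wnt3, Wnt2b, Sfrp4, Fzd6, Frzb, T and the NSC level of Rnf43.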

Other observations

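In 6 pairs of related genes the members moved in opposite directions in D2. The pairs were chosen after their values were seen, and no test was run on them. In 4 pairs the sum changed by a smaller fold than either gene. Rnf43 and Znrf3 together had 30.6, 24.6 and 26.9 TPM in D2 (naloxone, DAMGO, control), against 26.2, 26.9 and 27.4 TPM in NSC. The Rnf43 share was 45.3% to 49.6% in D2 and 1.86% to 7.36% in NSC. That NSC share is uncertain, since it rests on 7 to 9 counts and on deposited lengths of 916 to 3641 bases. Lrp5 and Lrp6 together had 53.2, 46.7 and 45.4 TPM in D2, against 48.1, 45.5 and 45.1 TPM in NSC, with an Lrp5 share of 44.3% to 51.6% in D2 and 28.4% to 31.0% in NSC. Tle1 and Tle2 together had 99.0, 99.3 and 91.5 TPM in D2, against 104, 113 and 118 TPM in NSC, with a Tle1 share of 91.7% to 96.9% in D2 and 25.3% to 30.8% in NSC. Apc and Apc2 together had 136, 115 and 120.1 TPM in D2, against 192, 182 and 193 TPM in NSC, with an Apc share of 38.2% to 47.1% in D2 and 93.5% to 95.1% in NSC. In the other 2 pairs the sum rose with the more abundant gene. Tcf7 and Tcf7l1 together had 51.7, 50.7 and 45.5 TPM in D2, against 17.9, 13.8 and 15.97 TPM in NSC, with a Tcf7 share of 2.47% to 5.98% in D2 and 42.3% to 45.6% in NSC. Vangl1 and Vangl2 together had 105, 109.6 and 122 TPM in D2, against 65.9, 65.2 and 64.4 TPM in NSC, with a Vangl1 share of 9.10% to 11.9% in D2 and 27.0% to 31.3% in NSC.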
